A study of Mus musculus with 10 samples.

Results

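The genes described here are 9 transcription factors outside the Hox clusters that give limb and girdle tissue its position and shape: Pitx1, Tbx4, Tbx5, Tbx15, Tbx18, Meis1, Meis2, Prrx1 and Shox2. They were taken as a list of named genes, 9 of 19938 genes with a probe set that carries that gene symbol alone, and each was measured by 1 such probe set. They were followed across 5 independent preparations of bone marrow mesenchymal stromal cells, named MSC I, MSC II, MSC III, MSC IV and MSC V, with 2 arrays per preparation. All preparations came from the marrow of female C57BL/6J mice aged 6 to 8 weeks, were grown in the same murine mesenchymal medium and were studied at passage 16 to 17. Every level is a log2 expression value from an Affymetrix whole-transcript array, so a difference of 1 log2 is a fold of 2. The labels name no control preparation, do not say from which bones the marrow came, and do not tell whether the arrays of a preparation came from cultures grown apart. The tests therefore weigh differences against a spread that may be technical in origin.

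Mesenchymal cells keep a record of where in the body they arose in the form of transcription factors switched on in the embryo. In the limb bud, Pitx1 sets hindlimb character and acts upstream of the T-box gene Tbx4, while the related Tbx5 starts the forelimb. Meis1 and Meis2 are homeobox proteins of the TALE class that mark the part of the limb nearest the trunk, Shox2 is needed for the long bone of that part, and Prrx1 marks limb and skull mesenchyme at large. Tbx15 and Tbx18 act together in forming the shoulder blade, and Tbx18 also marks mural cells of blood vessels.

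The cells carried stromal markers, with adipocyte and osteoblast markers in unequal measure and few markers of blood, endothelium, cartilage or muscle. Of 9 measured stromal markers all 9 passed the low-value filter, which asks for at least 2 arrays above the median of the whole table (6.55 log2). Pdgfrb, Cd44 and Cxcl12 lay above that median in every preparation, as did Pdgfra and Vcam1. The defining marker Eng did so in MSC IV (9.60) and not in the other four (5.58 to 5.78), and Thy1 in MSC II (7.19) and not in the other four (5.58 to 6.47). Nt5e lay under the median in MSC I (5.92), and Lepr in MSC I, II and V (5.50, 5.49 and 6.35). Of 7 measured haematopoietic markers 1 passed, the lysosomal protein Cd68, and of 5 endothelial markers 0 did. Chondrocyte and skeletal muscle markers passed in 1 of 5 cases each. All 5 adipocyte and all 4 measured osteoblast markers passed, but not in every preparation alike. Adipoq, Plin1 and Cd36 exceeded the table's median in MSC I alone and passed the filter through it. Of the osteoblast markers 1 lay above that median in MSC I, against 3 or 4 in each other preparation. Adipocyte markers stood out in MSC I, where the mean level of 5 genes was 10.91 and 11.52 on its arrays against 5.70 to 6.73 elsewhere. Osteoblast markers stood out in MSC IV, where the mean level of 4 genes was 11.12 and 12.01 against 5.79 to 9.30 elsewhere. Among them Dmp1 was not highest there, at 7.61 in MSC IV and 8.30 in MSC II. Arrays of 1 preparation correlated at r = 0.971 to 0.982 across the 10971 tested genes and arrays of different preparations at r = 0.760 to 0.955.

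Of the 9 factors, 7 passed the low-value filter and were tested, and 5 of them differed among the preparations: Pitx1, Tbx18, Meis2, Meis1 and Tbx15. A gene is called here when the adjusted p is under 0.05 in limma's moderated test, adjusted by Benjamini-Hochberg over all tested genes, and the difference is at least 1 log2. By that rule 29.1% of the 10971 tested genes were called among the 5 preparations. The range of preparation means had a median of 1.60 log2 over the 7 tested factors, beside 0.75 over all tested genes. The median replicate SD of these factors was larger as well, 0.21 beside 0.13 log2. Meis1 and Tbx15 were called less firmly than the others, since single arrays ended their calls. Prrx1 and Shox2 had ranges of 0.56 and 0.65 and were not called, and Tbx4 and Tbx5 lay under the median of the table on all 10 arrays.

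**Figure D1:**
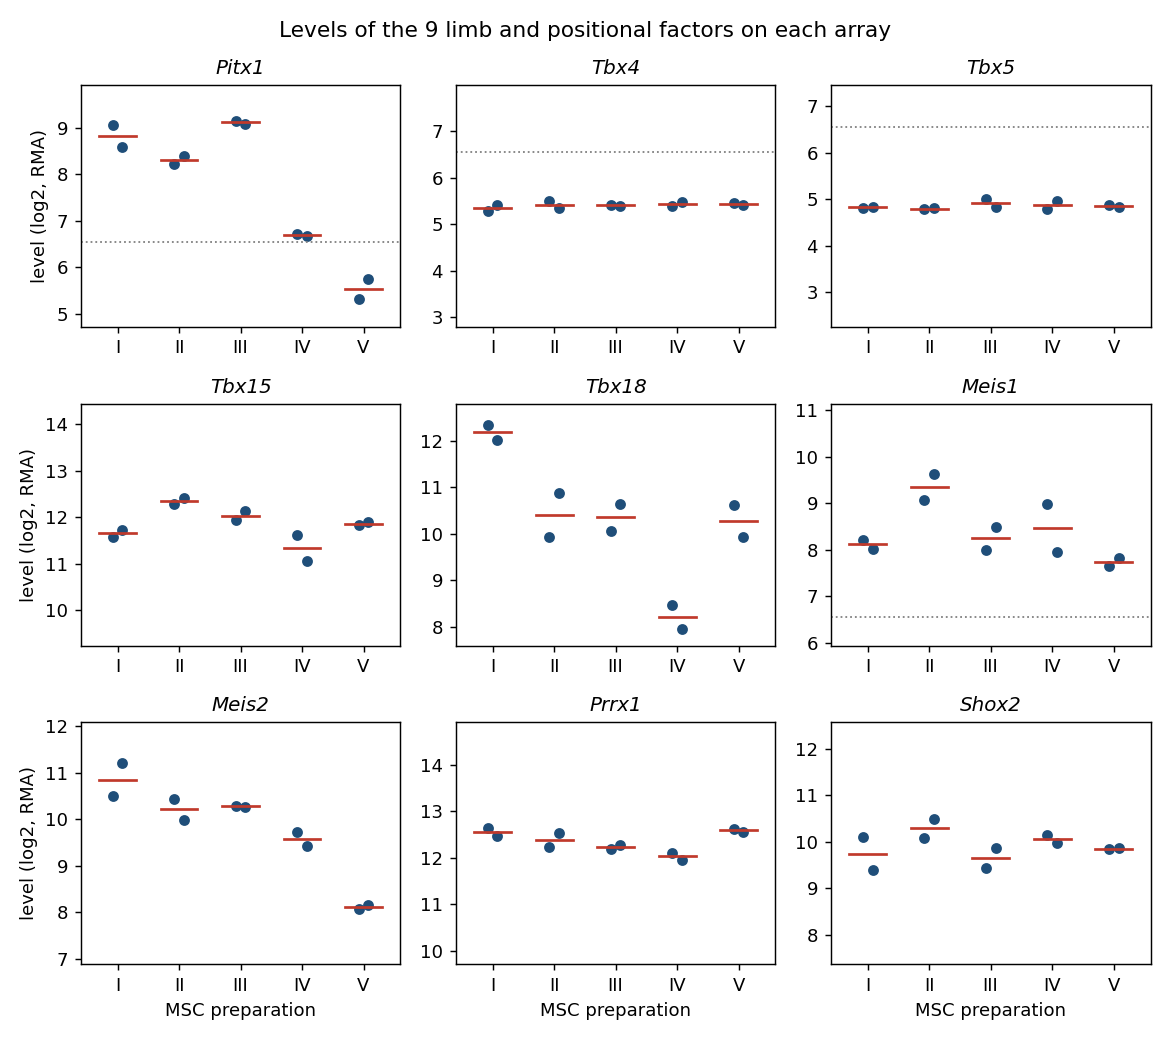
Level of each of the 9 factors (log2, RMA values) on the 2 arrays of each preparation (points) with the preparation mean (red bar). Every panel spans the same number of log2 units, and the dotted line is the median of the whole table, 6.55, where it falls inside the panel. Pitx1 and Meis2 are lowest in MSC V, and Tbx18 is highest in MSC I and lowest in MSC IV.

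Promoter sequence was at hand for 6 of the 9 factors, from RefSeq on GRCm38.p6. Those of Tbx18 and Meis2 are shown because these had the largest ranges among the factors with a promoter in the table, 3.98 and 2.74 log2. Each line gives the 250 bases before the annotated start, 5′ to 3′ on the gene's own strand, and capitals mark a match to any of 5 motifs.
Tbx18 (chr9:87731261-87731510, minus strand): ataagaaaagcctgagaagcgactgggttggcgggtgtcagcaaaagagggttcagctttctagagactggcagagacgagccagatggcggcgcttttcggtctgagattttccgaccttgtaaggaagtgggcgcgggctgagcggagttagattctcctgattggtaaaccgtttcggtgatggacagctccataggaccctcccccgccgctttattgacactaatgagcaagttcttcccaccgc
Meis2 (chr2:116064620-116064869, minus strand): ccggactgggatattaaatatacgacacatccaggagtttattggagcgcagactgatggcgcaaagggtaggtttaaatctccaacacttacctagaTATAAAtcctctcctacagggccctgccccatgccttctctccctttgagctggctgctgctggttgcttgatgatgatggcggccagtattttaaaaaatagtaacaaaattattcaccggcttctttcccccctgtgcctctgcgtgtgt
The motifs were searched on both strands and were chosen after the expression values had been seen. They were TGACAG (TALE core), AGGTGTGA (T-box half-site), TAATCC (Pitx core), TAATTA (homeodomain core, its own reverse complement) and TATAAA (promoter box), and no printed window held more than 1 match. The Meis2 window held TATAAA from 152 to 147 bases before the start, a motif present in 12.4% of 32851 promoter windows of this length. The Tbx18 window held none of the 5. TGACAG was present in 15.9% of all windows, TAATCC in 6.25%, TAATTA in 4.84% and AGGTGTGA in 1.12%. These matches describe the letters of the windows and say nothing of binding.

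Pitx1 separated the preparations most cleanly relative to its replicate spread. Its levels were 9.07 and 8.59 in MSC I, 8.22 and 8.40 in MSC II, 9.15 and 9.08 in MSC III, 6.72 and 6.68 in MSC IV, and 5.32 and 5.74 in MSC V. Both MSC V arrays lay below all other arrays, both MSC IV arrays came next, and the arrays of MSC I, II and III lay at 8.22 or above, with those of MSC III the highest. The preparation means had an SD of 1.53 log2, beside a pooled replicate SD of 0.21, a ratio of 7.27 that was the highest of the 9 factors.

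The range of Pitx1, 3.59 log2 between MSC III and MSC V or 12.0-fold, was called at an adjusted p of 4.2e-05 (F test). MSC V averaged 5.53 ± 0.29 (SD, n = 2) and the mean of the other four was 8.24, a difference of -2.71 ± 0.16 log2 (SE, adjusted p = 0.000157). MSC IV was lower as well, at 6.70 ± 0.032 against 7.95 in the other four (-1.25 ± 0.16, adjusted p = 0.00124). MSC III (1.77 ± 0.16, adjusted p = 0.00125) and MSC I (1.42 ± 0.16, adjusted p = 0.000434) were higher than the mean of their other four. Between pairs, MSC III over MSC I (adjusted p = 0.315), MSC I over MSC II (adjusted p = 0.0714) and MSC II against MSC III (adjusted p = 0.0559) were not called, while all 7 pairs that involve MSC IV or MSC V were. The MSC V levels lie where RMA compresses differences, close to those of Tbx4 (5.28 to 5.50 on all arrays), so the size of each difference from MSC V depends on the floor of the array and may be understated. Without MSC V replicate 1 the difference of MSC IV over MSC V was 0.96 log2 in place of 1.17, under the minimum.

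MSC III and MSC V were the closest pair of preparations over the transcriptome, with 2.07% of tested genes called between them in either direction. Pitx1 was among these, and its difference there, 3.59 ± 0.20 log2 (adjusted p = 0.000301), carries the limit of the array's floor given above. Meis2 was called between the same preparations (2.16 ± 0.25, adjusted p = 0.00546), with rank 87 by size of difference among the 10971 tested genes. The other 5 tested factors were not called in that pair, with differences between -0.35 (Prrx1) and 0.50 (Meis1).

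The hindlimb and forelimb T-box genes varied by no more than their replicates did. Tbx4, the hindlimb gene downstream of Pitx1, ranged over all 10 arrays from 5.28 to 5.50 log2, and Tbx5, its forelimb counterpart, from 4.78 to 5.01. Preparation means of Tbx4 differed by at most 0.094 log2 and those of Tbx5 by at most 0.12. The SD of preparation means was 0.037 for Tbx4 and 0.044 for Tbx5, smaller than the pooled replicate SD of 0.072 and 0.086. Neither passed the low-value filter. Fitted without that filter among 19938 genes, neither differed (adjusted p = 0.849 for Tbx4 and 0.828 for Tbx5, F test). Such levels lie near the floor of the array, and with no detection call they do not show that the transcripts were absent. Tbx4 averaged 5.34, 5.42 and 5.40 in MSC I, II and III, where Pitx1 was high, and 5.43 and 5.44 in MSC IV and V, where Pitx1 was low.

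Tbx18 had the widest range of the 9 factors. Its levels were 12.34 and 12.02 in MSC I, 9.92 and 10.87 in MSC II, 10.06 and 10.63 in MSC III, 8.47 and 7.94 in MSC IV, and 10.61 and 9.93 in MSC V. Both MSC I arrays lay above and both MSC IV arrays below every other array, and MSC II, III and V overlapped in between.

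MSC I averaged 12.18 ± 0.22 (SD, n = 2) against 9.80 in the other four, a difference of 2.38 ± 0.30 log2 (SE, adjusted p = 0.000856) or 5.20-fold. MSC IV averaged 8.21 ± 0.37 against 10.80 in the other four (-2.59 ± 0.30, adjusted p = 0.000915), 6.03-fold lower. The difference of MSC I over MSC IV was 3.98 ± 0.38 log2 (adjusted p = 0.000199), 15.8-fold, and the range of Tbx18 stood at rank 283 among those of the 10971 tested genes. MSC II, III and V lay within 0.12 log2 of each other and were not called in any pair (adjusted p = 0.850 to 0.956). The calls of MSC I and of MSC IV against the other four held without each array in turn, but several single pairs passed the p threshold with all 10 arrays and not with 9, at differences somewhat smaller than the full ones. When replicate 1 of MSC I was left out, its differences were 1.63 over MSC II (adjusted p = 0.0556), 1.68 over MSC III (0.0796) and 1.76 over MSC V (0.0605), in place of 1.79, 1.83 and 1.92. The difference of MSC I over MSC V was 1.58 (adjusted p = 0.0572) when MSC V replicate 2 was left out, and that over MSC III 1.55 (0.0831) when MSC III replicate 1 was. When replicate 2 of MSC IV was left out, MSC II was higher than MSC IV by 1.93 (adjusted p = 0.0644) and MSC III by 1.88 (0.0801), in place of 2.19 and 2.14, and MSC IV over MSC V was -1.80 (0.0657) in place of -2.06. MSC III over MSC IV was 1.86 (adjusted p = 0.0808) when MSC III replicate 2 was left out, and MSC IV over MSC V was -1.72 (0.0573) when MSC V replicate 1 was. The adipocyte markers were high in MSC I, where Tbx18 was high. The osteoblast markers other than Dmp1 were highest in MSC IV, where Tbx18 was low. The mean levels of both lists are given above. The part of these markers in the result was not tested. In such bulk RNA, fewer cells that express a gene and less RNA per cell cannot be told apart.

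Tbx15, the T-box gene of the shoulder blade, varied far less. It lay at 11.57 and 11.73 in MSC I, 12.29 and 12.41 in MSC II, 11.93 and 12.13 in MSC III, 11.61 and 11.05 in MSC IV, and 11.82 and 11.90 in MSC V. The MSC II arrays were the highest, and 1 of the MSC IV arrays overlapped with MSC I. Only the pair of MSC II over MSC IV was called, at 1.01 ± 0.19 log2 (adjusted p = 0.0111), and the range among all 5 was called at an adjusted p of 0.0207. That difference shrank to 0.73 log2 when MSC IV replicate 2 was left out and to 0.95 (adjusted p = 0.0728) when MSC II replicate 2 was, and neither the pair nor the range was then called. No neighbours in the order MSC II, III, V, I and IV were called (adjusted p = 0.204 to 0.641).

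Meis2 repeated part of the Pitx1 order. Its levels were 10.50 and 11.21 in MSC I, 10.44 and 9.98 in MSC II, 10.29 and 10.27 in MSC III, 9.73 and 9.42 in MSC IV, and 8.07 and 8.16 in MSC V. Both MSC V arrays were the lowest of all by over 1 log2, and the MSC I arrays were the highest.

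MSC V averaged 8.11 ± 0.060 (SD, n = 2) against 10.23 in the other four, which is -2.11 ± 0.20 log2 (SE, adjusted p = 0.00138) or 4.33-fold lower. MSC I was higher than its other four by 1.31 ± 0.20 (adjusted p = 0.00198). Each of the other preparations was higher than MSC V, by 2.74 in MSC I (adjusted p = 0.000284), 2.10 in MSC II (0.00346), 2.16 in MSC III (0.00546) and 1.46 in MSC IV (0.00762). In the order MSC I, III, II, IV and V, the step of MSC IV over MSC V was the only one called between neighbours. Without MSC I replicate 2 the MSC I difference was 0.95 against the other four and 0.92 in place of 1.28 over MSC IV, both under the minimum. Without MSC III replicate 1 the difference of MSC III over MSC V was 2.15 in place of 2.16, at an adjusted p of 0.0504. Across the 10 arrays Pitx1 and Meis2 correlated at r = 0.89, the highest value among the 21 pairs of tested factors. The arrays are 5 preparations with 2 arrays each, so this is a description. Of the haematopoietic markers, Cd68 averaged 8.54 in MSC V and 6.60 to 7.41 elsewhere. The mean level of all 7 was 5.61 and 5.62 on the MSC V arrays against 5.31 to 5.42 elsewhere, which reflects Cd68. The other markers of that list did not pass the filter and hardly varied. They lay between 4.81 (Itgam) and 5.32 (Csf1r) in MSC V and between 4.72 and 5.38 elsewhere. The part of Cd68 in the low Pitx1 and Meis2 levels of MSC V was not tested.

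Meis1, the close relative of Meis2, followed another order. It lay at 8.21 and 8.02 in MSC I, 9.06 and 9.62 in MSC II, 8.00 and 8.49 in MSC III, 8.99 and 7.95 in MSC IV, and 7.66 and 7.83 in MSC V. The MSC II arrays were the highest and the MSC V arrays the lowest, but the MSC IV arrays disagreed by about 1 log2 and spanned the arrays of MSC I and MSC III. MSC II averaged 9.34 ± 0.40 (SD, n = 2) against 8.14 in the other four, a difference of 1.20 ± 0.27 log2 (SE, adjusted p = 0.0222). MSC II over MSC V was 1.60 ± 0.35 (adjusted p = 0.0248), and MSC I was lower than MSC II by a difference of -1.22 ± 0.35 (adjusted p = 0.0283). MSC V was low for Meis2 and not called for Meis1 (-0.80 ± 0.27, adjusted p = 0.0996). The 2 genes were not tested against each other. The range among all 5 (adjusted p = 0.0381) was no longer called without any of 7 arrays, namely both of MSC I (adjusted p = 0.0686 for each), both of MSC II (0.0542 and 0.156), both of MSC V (0.0844 and 0.0696) and MSC III replicate 1 (0.0548). The range itself, 1.60 with all arrays, was the same without either MSC I array or MSC III replicate 1, 1.88 and 1.31 without each MSC II array, and 1.51 and 1.68 without each MSC V array. Resting on replicate 2 alone, the MSC II difference against the other four was 1.48 (adjusted p = 0.0531), and resting on replicate 1 alone it was 0.91 (0.180). The call of MSC II over MSC V ended when any array of those preparations was left out (adjusted p = 0.0502, 0.112, 0.104 and 0.0708), and that of MSC I against MSC II when either MSC I array or MSC II replicate 2 was (0.0804, 0.110 and 0.134).

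Prrx1 and Shox2 were measured well above the table's median on every array and varied little. Prrx1, the marker of limb mesenchyme, lay at 12.63 and 12.47 in MSC I, 12.23 and 12.53 in MSC II, 12.19 and 12.28 in MSC III, 12.11 and 11.95 in MSC IV, and 12.62 and 12.55 in MSC V. The MSC IV arrays were the lowest of the 10, by a small margin. The difference of MSC IV over MSC V was -0.56 ± 0.14 log2 (SE, adjusted p = 0.0267), past the p threshold and under the minimum of 1 log2, as was its range (adjusted p = 0.0432). Shox2 lay at 10.10 and 9.40 in MSC I, 10.09 and 10.50 in MSC II, 9.43 and 9.87 in MSC III, 10.16 and 9.97 in MSC IV, and 9.84 and 9.87 in MSC V. Its preparations overlapped, and their SD of 0.26 was under the pooled replicate SD of 0.30 (adjusted p = 0.234, F test). For its largest pair, MSC II over MSC III, the difference was 0.65 ± 0.26 (adjusted p = 0.177). Its 95% interval was 0.041 to 1.26, which reaches past the minimum of 1 log2. That interval is not adjusted for the number of genes or for the choice of the largest pair.

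**Figure D2:**
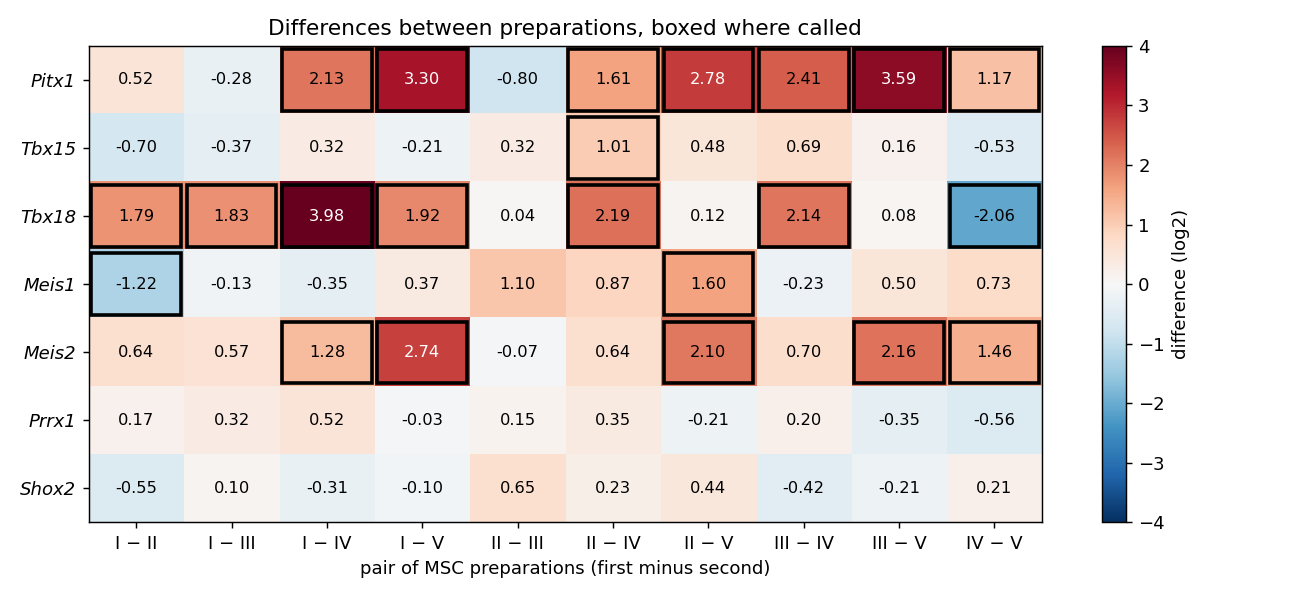
Difference in level (log2, first-named minus second-named preparation) for the 7 tested factors in the 10 pairs of preparations, red where the first is higher. Boxes mark the 22 of 70 differences that were called, 7 of them in Pitx1 and 7 in Tbx18, and the column of MSC II against MSC III holds none.

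Against the mean of the other four, 9 of 35 tests of the factors were called, beside 6.98% of such tests over all genes. MSC I stood higher than that mean in 3 of 7 tested factors (Pitx1, Tbx18 and Meis2), where 7.73% of all tested genes were called higher. MSC II was higher in 1 (Meis1, background 2.45%) and MSC III in 1 (Pitx1, background 1.31%). MSC IV was lower in 2 (Pitx1 and Tbx18, background 7.7%) and MSC V in 2 (Pitx1 and Meis2, background 1.44%). A call against that mean does not make a preparation the extreme. For Pitx1, MSC I averaged 8.83, under MSC III at 9.11, and MSC IV averaged 6.70, above MSC V at 5.53. No factor was called lower in MSC I, II or III, where 5.22%, 2.69% and 0.957% of tested genes were, or higher in MSC IV or V, where 3.29% and 2.11% were. These 5 comparisons share arrays and are not independent of each other. In the 10 pairs, 22 of 70 tests of the factors were called, where 9.56% of all gene and pair tests were. Between MSC II and MSC III 0 of the 7 factors were called, beside 3.02% of all tested genes called in either direction. Differences of MSC II over MSC III were still 1.10 ± 0.35 log2 for Meis1 (adjusted p = 0.105) and -0.80 ± 0.20 for Pitx1 (0.0559). The count of called factors was 3 for MSC I against IV (20.3% of all genes), I against V (10.5%), II against IV (9.06%), II against V (5.56%) and IV against V (10.9%). It was 2 for MSC I against II (14.9%), III against IV (7.99%) and III against V (2.07%), and 1 for MSC I against III (11.3%).

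**Figure D3:**
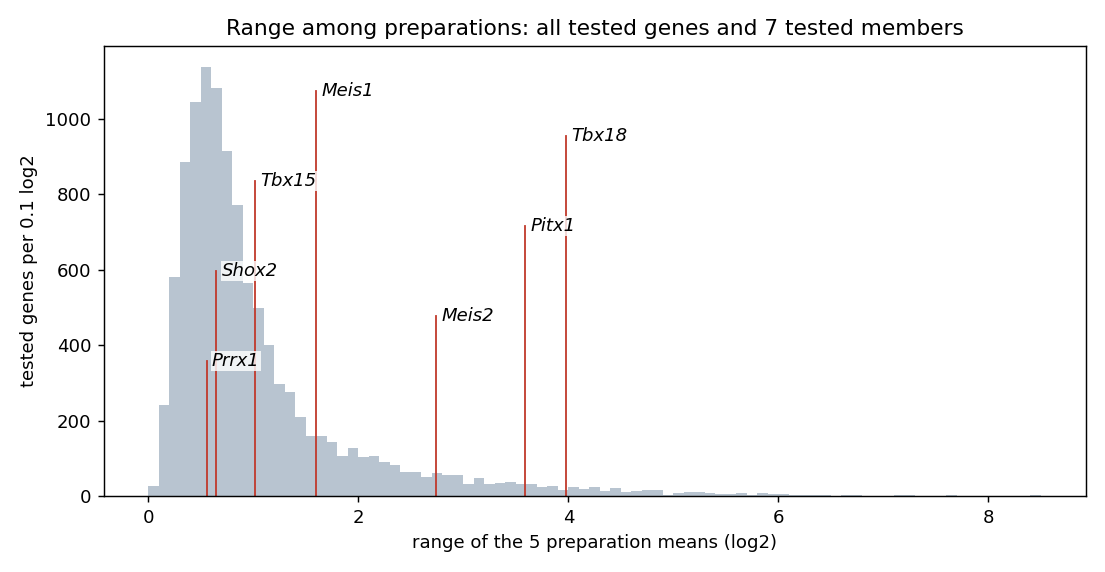
Number of tested genes by the range of their 5 preparation means (log2, in steps of 0.1), with the 7 tested factors marked by red lines whose height carries no value. Tbx18 (3.98), Pitx1 (3.59) and Meis2 (2.74) lie in the upper tail, and Prrx1 (0.56) and Shox2 (0.65) lie under the median of all tested genes, 0.75.

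Relatives of the factors and other genes of limb patterning were read from 5 lists with 94 entries, of which 87 were measured and 39 passed the low-value filter. Of these, 28 were called among the preparations, beside 29.1% of all tested genes. Some passed the filter through the preparation in which they were high and could then only differ. Among the 32 whose mean over all arrays lay above the table's median, 22 were called, beside 27% of all tested genes with such a mean.

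Of 12 tested TALE homeobox genes outside the members, 7 were called. Of the 9 with a mean over all arrays above the table's median, 5 were. Pknox2, a relative of the Meis genes, had the widest range, 4.16 log2 (adjusted p = 0.000628), with 10.40 ± 0.49 (SD, n = 2) in MSC I and 6.24 ± 0.35 in MSC IV. Irx3 and Irx5, neighbouring homeobox genes with a role in the early hindlimb bud, were highest in MSC IV (9.47 ± 0.34 and 9.80 ± 0.32) and lowest in MSC I (6.55 ± 1.05 and 7.78 ± 0.59), with adjusted p of 0.0121 and 0.00556. Of the other T-box genes 2 were tested and 1 was called, the limb gene Tbx3, at 8.00 ± 0.055 in MSC III and 6.87 ± 0.27 in MSC IV (adjusted p = 0.0107).

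The 3 tested paired-class homeobox genes were all called, 1 of them with a mean over all arrays above the table's median. Prrx2, the paralogue of Prrx1, was at 10.47 ± 0.29 in MSC III and close to that in MSC II, IV and V (10.04 to 10.38), against 6.09 ± 0.21 in MSC I (adjusted p = 8.5e-05), so its range was 4.38 log2 beside 0.56 for Prrx1. Alx1, a gene of head mesenchyme, was highest in MSC I (6.86 ± 0.12) and at 5.06 to 5.52 elsewhere. Pax9, a gene of the vertebral column and of the limb bud, was highest in MSC V (6.86 ± 0.047) and at 5.09 to 5.47 elsewhere. Alx1 and Pax9 exceeded the table's median in those preparations alone and passed the filter through them.

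Of 16 other limb and girdle transcription factors tested, 12 were called. Of the 14 with a mean over all arrays above the table's median, 10 were. Dlx5 and Dlx6, neighbouring homeobox genes of limb outgrowth and bone formation, were highest in MSC IV (11.42 ± 0.50 and 9.35 ± 0.50) and lowest in MSC I (5.89 ± 0.81 and 5.46 ± 0.13), with adjusted p of 0.000976 and 0.000464. Twist2, a mesenchymal repressor of bone cell maturation, ran the other way, with 10.03 ± 0.15 in MSC I and 5.53 ± 0.33 in MSC IV (adjusted p = 0.00352), and its MSC III and V arrays varied with SDs of 1.17 and 0.97. Of 6 tested limb signalling genes 5 were called. Aldh1a2, which makes retinoic acid (12.98 ± 0.61 in MSC I, 5.35 ± 0.25 in MSC IV, adjusted p = 0.000269), and Grem1, a BMP antagonist (11.32 ± 0.87 and 6.90 ± 0.18, adjusted p = 0.00155), had their extremes in the same preparations as Tbx18. Wnt5a, a ligand for outgrowth, had its highest mean in MSC IV (10.23 ± 0.27) and its lowest in MSC I (7.08 ± 0.40, adjusted p = 0.000957).

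**Figure D4:**
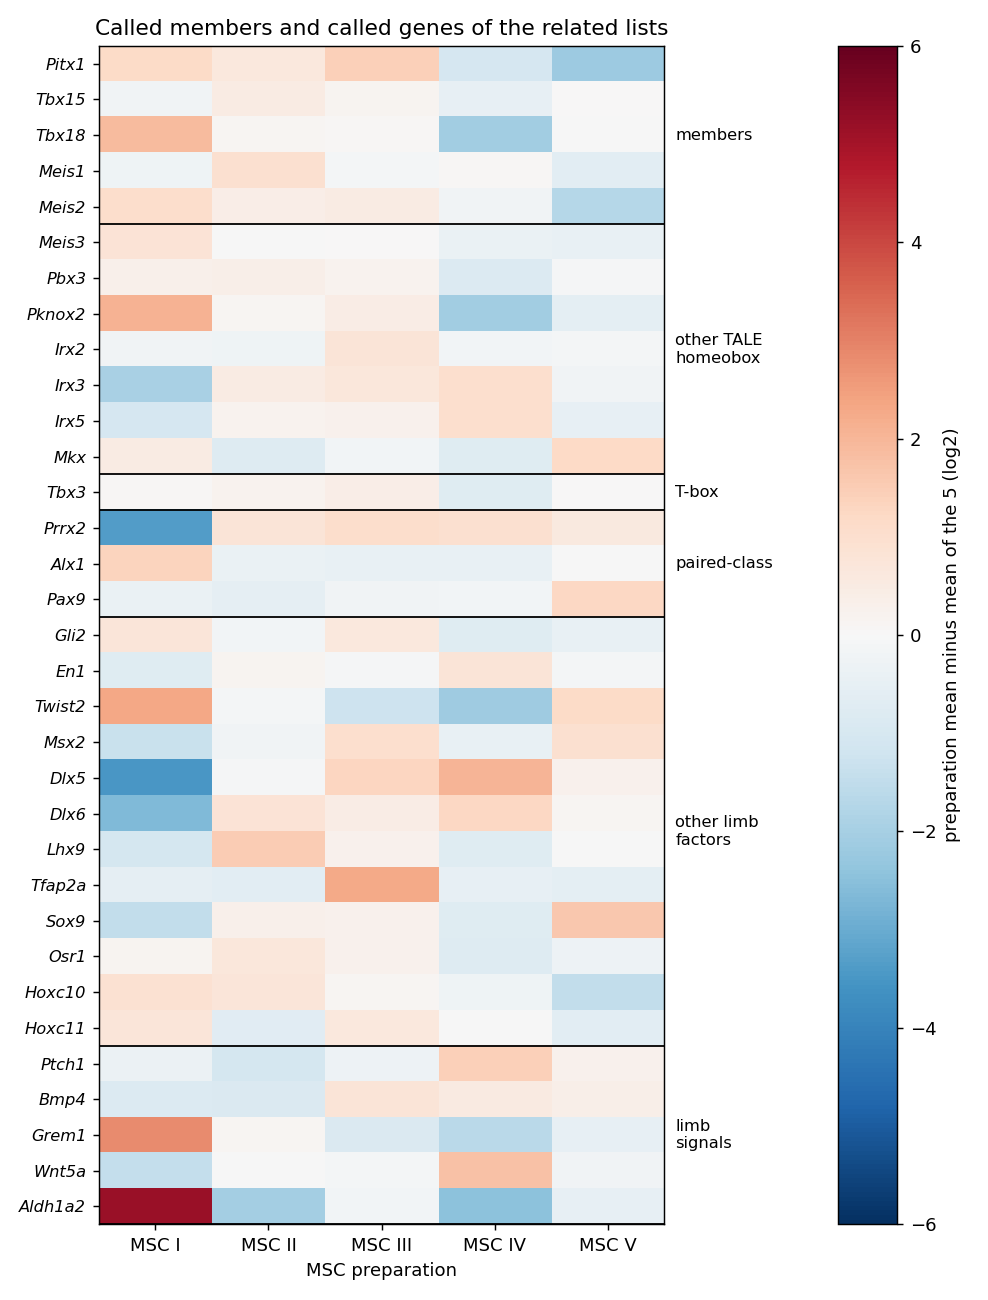
Preparation means of the 5 called factors and the 28 called genes of the related lists, each as the difference from the mean over the 5 preparations (log2, red higher, blue lower). The column of MSC I holds the deepest colours, with Aldh1a2 high and Prrx2 and Dlx5 low, and in the column of MSC V Pitx1 and Meis2 are the darkest blue.

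For each called factor the 3 genes with the most similar pattern were read from 10642 tested genes with established names, by Pearson's r over the 10 arrays. For Pitx1 they were Rab6a (r = 0.963), Hoxa9 (0.954) and Celf1 (0.932), of which Hoxa9 had a range of 2.91 log2 and means of 9.41, 9.55, 9.37, 8.02 and 6.64 from MSC I to MSC V. Rab6a varied by 0.23 log2 in all, so a high r there goes with a small change. For Tbx18 they were Denn2b (0.993), Parva (0.991) and Fah (0.989), with ranges of 2.93, 1.03 and 2.45 log2. For Meis2 they were Rexo4 (0.977), Crebzf (0.973) and Rif1 (0.965), for Meis1 Pramel12 (0.958), Tnrc18 (0.957) and Rbfox2 (0.953), and for Tbx15 Pwwp3b (0.964), Wnk3 (0.962) and Wipf1 (0.962). With 5 preparations such values describe these arrays, and no test was attached to them.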

How the data were processed

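The deposited values were log2 expression levels made by the authors with RMA and Partek, per the submitters' processing notes; tool versions are not given in the sources used here. Under RMA, background is corrected, arrays are normalised by quantiles and probes are summarised for each probe set on the log2 scale, which compresses low values. The table held 35399 probe sets on 10 arrays, with 0 identical pairs of arrays. Groups came from the sample titles. The platform annotation gave 21789 probe sets 1 symbol, 1621 several and 11989 none. The first kind was used, with current symbols through gene identifiers (21698 matched), and per gene the probe set with the highest mean. Such whole-gene values do not separate isoforms.

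Genes with at least 2 arrays above the table's median (6.55) were tested, 10971 in all. The linear model of limma 3.58.1 (R 4.3.3), with empirical Bayes moderation, held 1 mean per preparation and used all 10 arrays. The moderated F test compared the 5 preparations, and further contrasts set each against the mean of the other four and each of 10 pairs. Two-sided p-values received the Benjamini-Hochberg adjustment over genes, separately for each contrast. A call needed an adjusted p under 0.05 and 1 log2. Errors after differences are SE from the fit. The scripts were tested on simulated data. Alternatives were other filters, scalings and variance models, no minimum difference, a joint adjustment, the mean of probe sets, the replicate number as a block, and each array left out, where the remaining array of a preparation was assumed to vary like the others. The number of arrays limits the precision.

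The members and lists were chosen with earlier results of these data known. All members were named, as were up to 3 called genes with the widest range per related list, and the 3 genes most like each called member. Figures were drawn in Python 3.11.15.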

Additional observations from a re-analysis of the deposited data

How the results depend on the processing

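No direction of a called factor was reversed under the other scalings or without any single array. The remaining alternatives could not reverse one, since they left every difference of the factors as it was. Counts stayed within 1.5 times the reported ones except as follows. A filter at 9.22 log2, the 75th percentile, left 5 factors to test and gave 3 called among the preparations, 4 calls against the other four, 13 over the pairs and 15 genes of the related lists, since fewer genes were tested (Pitx1 and Meis1 among those left out). With the replicate block 3 factors were called among the preparations in place of 5, since Tbx15 (adjusted p = 0.0506) and Meis1 (0.0709) were no longer called. The calls were then 9 against the other four, 21 over the pairs and 28 in the related lists. The replicate numbers did not pair the arrays in a shared direction. Deviations of replicate 1 from the preparation means correlated between preparations at r = -0.55 to 0.20, over 0.1 in 1 of 10 cases. Some values were negative, down to -0.55. Whether replicate deviations were independent between preparations was not tested, nor was the source of these values. Leaving out each array in turn gave 3 to 5 factors called among the preparations, 8 to 9 calls against the other four, 18 to 23 over the pairs and 26 to 29 genes of the related lists, and the lowest count of factors, 3, came without MSC II replicate 2. Without the low-value filter Meis1 was not called among the preparations (adjusted p = 0.0717). Pitx1, Tbx18 and Meis2 kept their calls among the preparations wherever they were tested, with ranges of 3.38 to 3.79, 3.72 to 4.24 and 2.38 to 3.09 log2. For each single call that ended without an array the cause was not tested. The signal of Tbx4 and Tbx5 over background limits what can be said of them.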

Other observations

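Hoxc10 and Hoxc11, Hox genes of the hindlimb region, were members of the list of other limb factors and are named here after their values were seen. Hoxc10 averaged 10.55 ± 0.30 in MSC I, 10.36 ± 0.46 in MSC II, 9.77 ± 0.66 in MSC III, 9.40 ± 0.22 in MSC IV and 8.19 ± 0.60 in MSC V (SD, n = 2), with a range of 2.36 log2 (adjusted p = 0.0110, limma's F test). Its lowest mean was in MSC V, as for Pitx1 and Meis2. Hoxc11 had another order, with 8.45 ± 0.022 in MSC I, 8.35 ± 0.29 in MSC III and 7.72 ± 0.080 in MSC IV, above 7.07 ± 0.25 in MSC V and 7.02 ± 0.14 in MSC II (range 1.43, adjusted p = 0.00153). Sox9, the cartilage transcription factor of the limb, was highest in MSC V at 10.71, where Pitx1 and Meis2 were lowest, and lowest in MSC I at 7.62. It too was named after its values were seen.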
